A study of Chlamydomonas reinhardtii with 2 samples.

Results

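A set of 6 genes of photoprotection, the processes that dissipate excess light energy or electrons in the chloroplast, is described here in the unicellular green alga Chlamydomonas reinhardtii with and without phosphate. They are the 6 of 17147 loci in the deposited table whose symbol starts with LHCSR or equals ELI2-1, ELI4, PTOX1 or PTOX2. The symbols were picked with their values in these libraries known, so levels and folds of the 6 genes are a description and carry no test. Cells of the wild-type strain CC-1690, also called 21gr, were kept at 25 °C under constant light (70 µmol per m2 and s). The phosphate replete culture had 1.1 mM phosphate in acetate medium for 24 h, and the phosphate deprived culture had been washed free of phosphate and had 0 mM for the same time. Each condition was 1 RNA sequencing library, so no value has a replicate error, and each difference is between these 2 libraries.

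LHCSR proteins are relatives of the light-harvesting antenna proteins and, in green algae, switch the photosystem II antenna into a state that releases absorbed light as heat. LHCSR3 is best known from high light and LHCSR1 from ultraviolet light and low CO2, and LHCSR3 is encoded by a pair of neighbouring, near-identical genes. Early light-inducible proteins (ELI genes) are further antenna relatives that bind pigments when thylakoids are built or stressed. Plastid terminal oxidases (PTOX genes) pass electrons from reduced plastoquinone to oxygen and so act as an electron outlet of the thylakoid membrane.

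Levels are the authors' deposited RPKM values, reads per kilobase of gene scaled to the size of the library. They are relative to all RNA counted, so amounts per cell were not measured, and the number of reads behind a value is not recorded in the table. Where a pair of values follows a gene, the replete level comes first, and a value in brackets after the pair is the log2 fold, deprived over replete, of RPKM + 1. In the deprived library 5 of the 6 genes were higher and 1, ELI2-1, was lower. Every one of the 6 was at least 2-fold different on the scale of log2(RPKM + 1), as were 7.23% of the 13855 genes whose mean RPKM reached 1. Of these genes 5.59% were higher by that much and 1.64% lower. Because the symbols were picked on these values, nothing follows from the share of members beside that background. The order of levels changed as well. In the replete library it ran from ELI2-1 down through LHCSR2/LHCSR3.1, LHCSR1, PTOX2 and PTOX1 to ELI4. In the deprived library it ran from LHCSR2/LHCSR3.1 through LHCSR1, ELI2-1, PTOX1 and ELI4 to PTOX2, with the last 3 between 31.0 and 36.0 RPKM. With 1 library per condition, no spread was available to separate neighbours in either order.

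**Figure D1:**
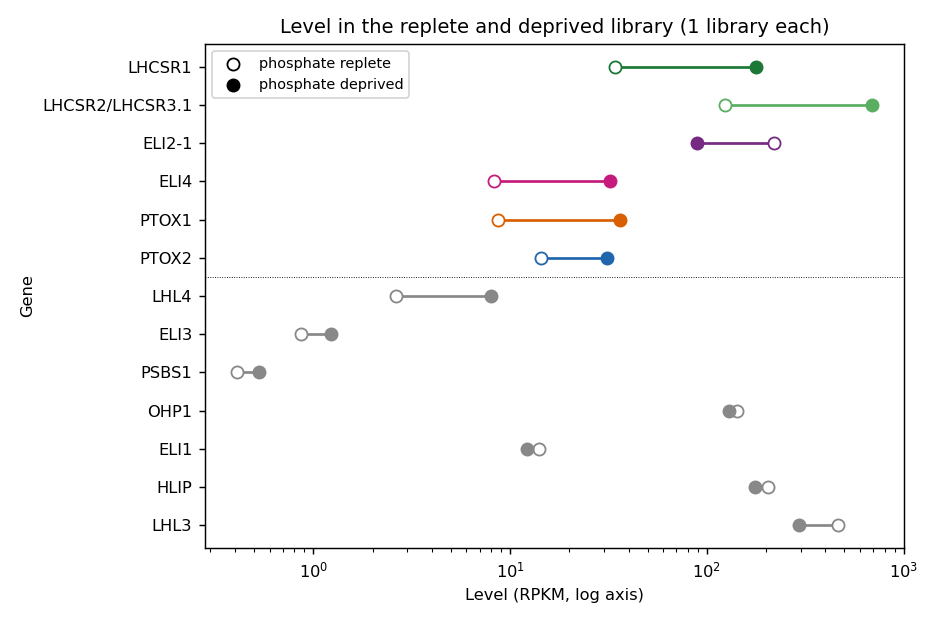
Level of each gene in RPKM (log axis) in the phosphate replete library (open points) and the phosphate deprived library (filled points), with the 6 described genes above the dotted line and the other genes matched as LHC-like stress proteins below it in grey. Both LHCSR genes, ELI4 and both PTOX genes lie further right in the deprived library, and ELI2-1 lies further left, at 89.4 against 219 RPKM.

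LHCSR1 (Cre08.g365900) had 34.0 RPKM with phosphate and 179 RPKM without it. The deprived level was 5.26 times the replete level, and the log2 fold was 2.36. The gene moved from place 1867 to place 454 when all loci were ranked from the highest level down. By fold it was the 100th highest of the 13855 genes.

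The other locus with an LHCSR symbol, Cre08.g367500, has the double name LHCSR2 || LHCSR3.1 in the deposited table and is written LHCSR2/LHCSR3.1 here. It had 124 RPKM with phosphate and 694 RPKM without it. Its deprived level was 5.62 times the replete level, with a log2 fold of 2.48 and place 87 by fold. The table describes it as lying immediately downstream of LHCSR3, and no locus has LHCSR3 alone as its symbol. How reads shared by near-identical copies were counted is not given in the sources used here, so the division of reads between copies is uncertain. On the log2(RPKM + 1) scale the 2 LHCSR genes were at least 4-fold different, both higher. PTOX1 also passed 4-fold with a pseudocount of 0.1 (2.04), without one (2.05) and with scaling to a common sum (2.01). Of all 13855 genes 1.03% were higher by at least 4-fold, 0.0505% lower and 1.08% either.

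The LHCSR genes kept nearly the same proportion to each other. LHCSR2/LHCSR3.1 had 3.64 times the level of LHCSR1 in the replete library and 3.89 times in the deprived library. Their log2 folds differed by -0.12, LHCSR1 minus LHCSR2/LHCSR3.1, and no replicate spread exists to judge that difference. Such ratios within a library do not depend on a scaling that multiplies a whole library by 1 factor, but quantile normalization is not of that kind and moved the difference to -0.22. A pseudocount of 5 moved the difference to -0.21.

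Relative to the major antenna the LHCSR genes made up a larger part in the deprived library. The 20 LHCA, LHCB and LHCBM genes, which encode the light-harvesting proteins of the photosystems, summed to 101232 RPKM with phosphate and to 99695 RPKM without. LHCSR1 and LHCSR2/LHCSR3.1 together came to 158 and 873 RPKM, equal to 0.156% and 0.876% of those antenna sums. That LHCSR sum leaves out Cre08.g367400, a locus without a symbol near LHCSR2/LHCSR3.1, with 187 and 1129 RPKM. Whether Cre08.g367400 encodes an LHCSR protein was not tested. The antenna sum was 0.985 times the replete sum, while the LHCSR sum was 5.54 times.

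**Figure D2:**
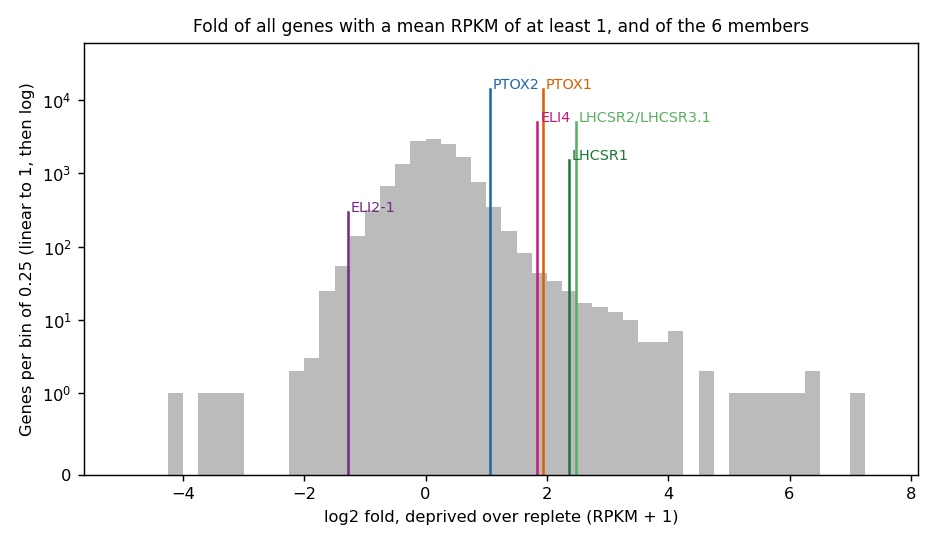
Number of genes per bin of log2 fold, deprived over replete, for the 13855 genes passing the filter (grey; the vertical axis is linear to 1 and logarithmic above), with coloured lines at the folds of the 6 genes. LHCSR1 at 2.36 and LHCSR2/LHCSR3.1 at 2.48 lie in the upper tail, and ELI2-1 at -1.28 lies in the lower tail.

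The early light-inducible genes lay on both sides. ELI4 (Cre02.g143550), which the deposited description also lists as the low-CO2-inducible gene LCI16, had 8.25 RPKM with phosphate and 32.2 RPKM without it. Its deprived level was 3.91 times the replete level, and its log2 fold was 1.85, place 166 from the top. ELI2-1 (Cre02.g129000), reported earlier as lhl1 according to its description, had 219 RPKM with phosphate and 89.4 RPKM without it. Its replete level was 2.45 times the deprived level, and its log2 fold of -1.28 was the 81st lowest of the 13855 genes. The description mentions a duplicated copy nearby, so reads of that copy may be counted here too.

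ELI2-1 thus had 26.5 times the level of ELI4 in the replete library and 2.77 times in the deprived library. Against the LHCSR genes its place was exchanged. ELI2-1 had 6.44 times the level of LHCSR1 in the replete library, and LHCSR1 had 1.999 times the level of ELI2-1 in the deprived library. The difference of log2 folds, ELI4 minus ELI2-1, was 3.13.

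Among the remaining ELI genes, ELI1 had 13.97 RPKM with phosphate and 12.2 RPKM without it (log2 fold -0.19). ELI3 was near the limit of the filter, with 0.865 and 1.23 RPKM (0.26). ELI1 and ELI3 were within 2-fold, so the 4 genes with an ELI symbol split into 1 higher, 1 lower and the other two without a difference of that size. LHL3, described as a low molecular mass early light-induced protein, was the most abundant LHC-like stress protein gene in the replete library, with 465 RPKM against 293 RPKM in the deprived library (-0.67).

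Both plastid terminal oxidase genes were higher in the deprived library. PTOX1 (Cre07.g350750), which the table describes as similar to the plastid terminal oxidase IMMUTANS of plants, had 8.68 RPKM with phosphate and 36.0 RPKM without it. The deprived level was 4.15 times the replete level, the log2 fold was 1.94, and the place by fold was 158. PTOX2 (Cre03.g172500), the main plastoquinol oxidase of chlororespiration in this alga, had 14.4 and 31.0 RPKM. Its deprived level was 2.16 times the replete level, with a log2 fold of 1.06 and place 657.

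The order of the oxidases was reversed between the libraries. PTOX2 had 1.65 times the level of PTOX1 in the replete library, and PTOX1 had 1.16 times the level of PTOX2 in the deprived library. The difference of their log2 folds, PTOX1 minus PTOX2, was 0.88. Together they had 23.0 and 67.0 RPKM. For comparison, AOX1, coding for the mitochondrial alternative oxidase, had 218 and 381 RPKM (log2 fold 0.80), so the PTOX sum was 10.6% of AOX1 with phosphate and 17.6% without it.

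The median log2 fold of the 13855 genes was 0.14, and 62.04% of them lay above 0. Relative to that median the members' folds were 2.34 for LHCSR2/LHCSR3.1, 2.22 for LHCSR1, 1.79 for PTOX1, 1.70 for ELI4, 0.92 for PTOX2 and -1.42 for ELI2-1. Scaling the libraries by their median log ratio, by a trimmed mean or by quantiles lowered the median by 0.14, 0.15 and 0.17, while scaling to a common sum raised it by 0.06. The split of all genes at least 2-fold different depended on this choice, with 77.3% higher in the deposited values, against 57.1% for the median, 56.5% for the trimmed mean, 56.4% for quantiles and 83.1% for the common sum. No member changed direction under any of these 4 scalings, and PTOX2 was the only one to cross the 2-fold line, with 0.89 under the median, 0.88 under the trimmed mean and 0.89 under quantiles.

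**Figure D3:**
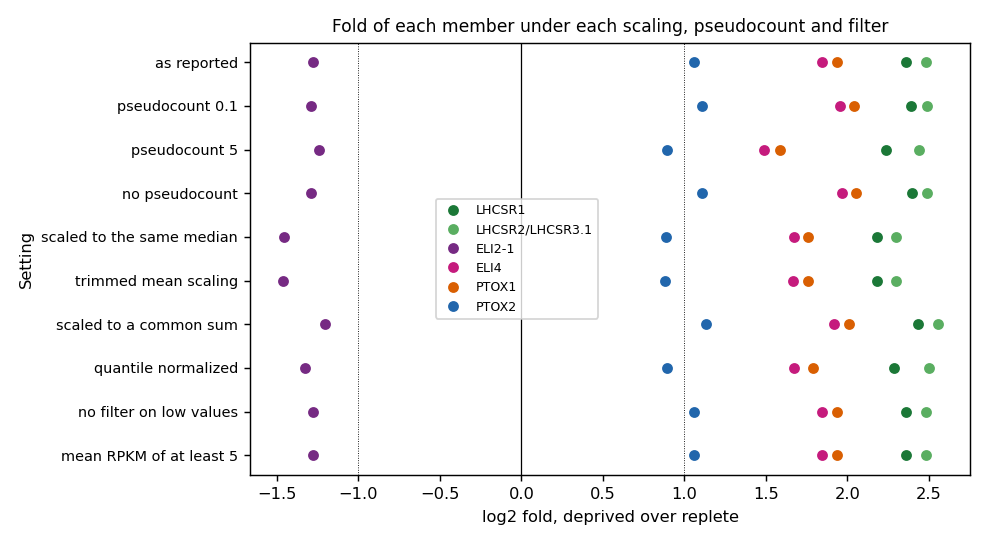
log2 fold, deprived over replete, of each of the 6 genes (colours) as reported and under 9 other pseudocounts, scalings and filters, with dotted lines at 2-fold in either direction. ELI2-1 stays between -1.46 and -1.21, and PTOX2 lies on both sides of the upper dotted line, from 0.88 to 1.13.

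The wider set of antenna relatives did not share 1 direction. The list of LHC-like stress proteins matched 11 genes by symbol or description, of which 10 passed the filter. Of these, 4 were higher by 2-fold or more and 1, ELI2-1, was lower by as much. The 4 higher genes were LHCSR1, LHCSR2/LHCSR3.1 and ELI4, already described, and LHL4, a light-inducible antenna relative with 2.62 and 7.98 RPKM (log2 fold 1.31). Without the 4 members the median was -0.16 over 6 genes, and 2 of the 6 lay above 0. OHP1, coding for a one-helix protein, had 142 and 129 RPKM (-0.14), and HLIP, described as a single-helix antenna-like protein, had 204 and 176 RPKM (-0.21). PSBS1, the gene of the photosystem II subunit that triggers heat dissipation in plants, was below the filter with 0.409 and 0.533 RPKM (0.12).

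The 20 antenna genes had a median log2 fold of -0.13, which became 0.0075 with quantile normalization, and 1 of them passed 2-fold. It was LHCBM9, a major antenna gene known for its response to nutrient stress, with 2.76 and 17.8 RPKM (2.32). That fold lay close to those of the LHCSR genes, at a far lower level. LHCBM5 (0.52) and LHCA3 (-0.46) had the next largest folds.

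Xanthophylls are the carotenoids that take part in heat dissipation. Among 6 genes for their synthesis and cycling the median was 0.29, and 1 passed 2-fold, upwards. ZEP, zeaxanthin epoxidase, which turns zeaxanthin back into violaxanthin, had 18.4 and 48.6 RPKM (1.35). CHYB, beta-carotene hydroxylase, had 1.80 and 3.97 RPKM (0.83), and CYP97A6, a carotenoid hydroxylase of the cytochrome P450 type, had 4.31 and 6.58 RPKM (0.51).

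In the list of alternative photosynthetic electron flow, PTOX1 and PTOX2 were the 2 of 13 genes at least 2-fold higher, and 0 were lower. Of all 13855 genes 5.59% were higher and 1.64% lower by that much. Both PTOX genes were picked with their folds known, so nothing follows from their place in this list. PTOX2 fell below 2-fold with median scaling, the trimmed mean, quantiles and a pseudocount of 5. The other 11 had a median of 0.33, and 8 of them lay above 0. They include AOX1 (0.80) and NDA1, which code for mitochondrial proteins and had the largest folds of the 11. The median is therefore not one of chloroplast genes alone. NDA1, a mitochondrial NADH dehydrogenase gene, stood just under the 2-fold line with 13.9 and 28.8 RPKM (0.999). PGR5 and PGRL1, which take part in cyclic electron flow around photosystem I, had log2 folds of 0.45 and -0.29. CAS1, another match, is described as cycloartenol synthase, an enzyme of sterol synthesis. Without it the median of the remaining 12, which include PTOX1 and PTOX2, was 0.39. STT7, the kinase of state transitions and the only match to that list, had 24.1 and 29.7 RPKM (0.29).

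The FtsH and Deg proteases, some of which act in photosystem II repair, formed a list with TEF30. Its median was 0.06 over 11 genes, turning below 0 under 3 of the 4 scalings, and 1 gene passed 2-fold, upwards. DEG1C, a DegP-type protease gene, had 20.6 and 71.9 RPKM (1.75), while DEG9 (-0.65) and DEG1A (0.65) had the next largest folds. Antioxidant enzyme genes had a median of 0.08 over 28 genes, below 0 with median or trimmed mean scaling, with 1 past 2-fold in each direction. The glutathione S-transferase gene GSTS2 had 71.0 and 184 RPKM (1.36), the peroxiredoxin gene PRX6 had 25.2 and 9.08 RPKM (-1.38), and the catalase gene CAT1 had 178 and 89.4 RPKM (-0.99). None of 10 genes matched as tocopherol and plastoquinone synthesis was 2-fold different as deposited (median 0.20), but 1 was with median scaling, the trimmed mean and quantiles. The largest folds were those of SPS1 (-0.91), VTE5 (-0.78) and HST1 (-0.36). Without a hexose-phosphate transporter and a phosphatidylinositol transfer protein that the pattern also caught, the median of the 8 left was 0.04.

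**Figure D4:**
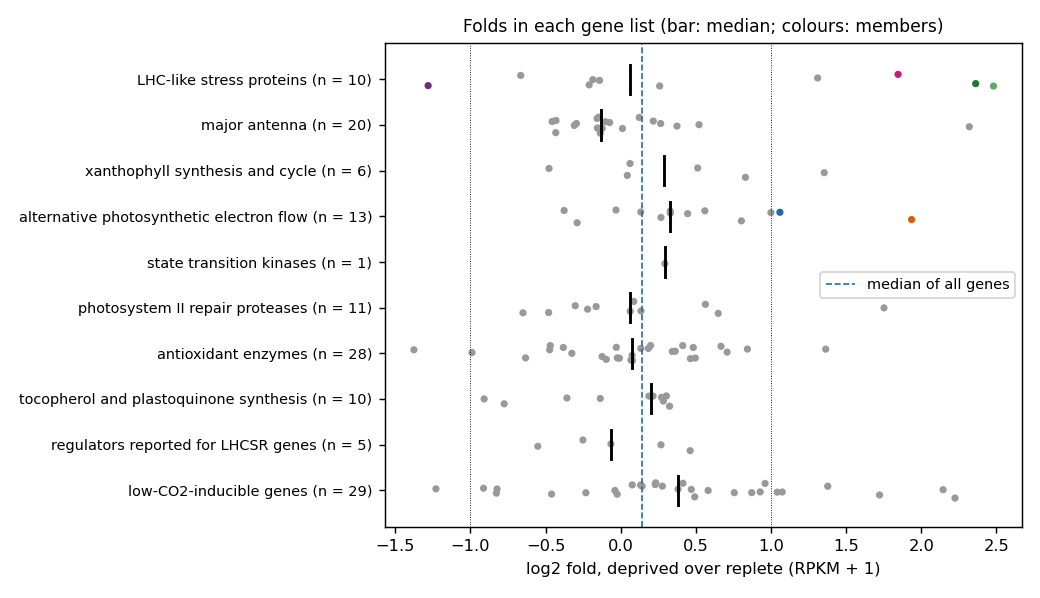
log2 fold, deprived over replete, of each gene passing the filter (points) in the 10 gene lists, with a black bar at each list's median, a dashed line at the median of all genes and dotted lines at 2-fold. The coloured members lie at the outer ends of their lists, from -1.28 to 2.48, and the list medians stay between -0.13 and 0.38. The members were picked with their folds known, so nothing follows from their place in the lists.

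The genes that the list matched as regulators of the LHCSR genes were all within 2-fold. The symbols COP1, SPA1, CON1, DET1, UVR8, NFYB, NFYC and ROC40 were also sought and matched no gene. Regulators of those names were therefore not assessed. PHOT, the blue light receptor phototropin, through which light acts on LHCSR3, had 74.5 and 71.2 RPKM (-0.06). CCM1, the regulator of CO2-responsive genes that is needed for LHCSR3 expression, had 6.04 and 4.92 RPKM (-0.25). CGLD18, a B-box zinc finger protein matched through its description and not its symbol, had 48.3 and 66.9 RPKM (0.46). Whether CGLD18 acts on LHCSR genes was not tested. Of 5 genes the pattern matched, 0 were 2-fold different, and CAS1 and CRB1 (-0.55), a subunit of a circadian RNA-binding protein, are matches by symbol that are not among such regulators.

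The deposited descriptions name both LHCSR1 and ELI4 as regulated by CCM1. A search for CCM1 in the descriptions, added after the values were seen, found 31 genes including CCM1 itself, all of which passed the filter. By fold LHCSR1 was the highest of these 31 and ELI4 was in place 3, with LCI31, a low-CO2-inducible gene, between them at 2.14. Because LHCSR1 and ELI4 were picked with their folds known, nothing follows from these places. The other 29 genes had a median of 0.21, with 3 past 2-fold upwards and 1 downwards. CAH1, the periplasmic carbonic anhydrase gene that is a standard target of CCM1, had 4134 and 5508 RPKM (0.41), and LCIB, another gene of low CO2, had 90.2 and 47.4 RPKM (-0.91).

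The list of low-CO2-inducible genes by symbol overlaps the CCM1 set, sharing LCI31, CAH1, LCIB and others. It had a median of 0.38 over 29 genes, 6 of them past 2-fold upwards and 1 downwards. Of all 13855 genes 5.59% were higher and 1.64% lower by that much. The largest folds in the list were those of CCP2 (2.22), LCI31 and LCI30 (1.72), and the lower gene was LCI11 (-1.23). CCP1 (1.38), CAH8 (1.07) and LCI28 (1.04) made up the rest of the higher genes. The CCP genes and the carbonic anhydrase (CAH) genes were taken by symbol, and whether each of them responds to low CO2 was not tested.

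The genes with a symbol nearest to each member in fold were sought among those with a mean level within 2-fold of it, over the 2 libraries. Nearest to LHCSR1 were the glycerol-3-phosphate dehydrogenase gene GPD1 (23.7 and 183 RPKM), 0.54 away on the log2 scale, and PWR1, 0.64 away. Nearest to LHCSR2/LHCSR3.1 were the sodium/phosphate symporter gene PTB4 (130 and 616 RPKM), 0.24 away, and the small heat shock gene HSP22F, 0.55 away. Nearest to ELI2-1 were PRPL4 (245 and 101 RPKM) and PRPL31 (252 and 105 RPKM), both plastid ribosomal protein genes, 0.01 and 0.02 away. Nearest to ELI4 were SNE5 and FAS2, nearest to PTOX1 were GAP2 and SNE5, and nearest to PTOX2 were FAS1 and TRM2A, all within 0.16. With 2 libraries, likeness means only a similar fold.

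**Figure D5:**
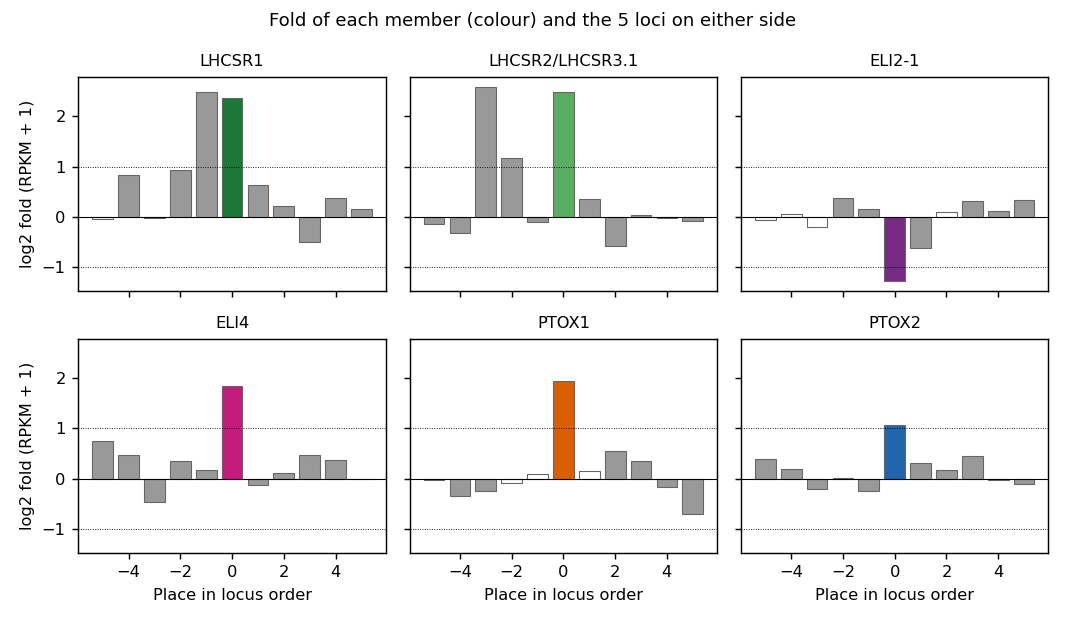
log2 fold, deprived over replete, of each of the 6 genes (coloured bar at place 0) and of the 5 loci on either side of it in the table's locus order (grey; white where the mean RPKM was under 1), with dotted lines at 2-fold. LHCSR1 and LHCSR2/LHCSR3.1 have neighbours past the upper dotted line, at 2.49, 2.59 and 1.16, and the other 4 genes have none.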

How the data were processed

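The authors deposited RPKM values for 17147 loci in 1 replete and 1 deprived library; table columns were matched to libraries by the library code in the labels. Per the submitters' processing notes the aligner named is Bowtie. Its version, the genome build, the annotation, the counting method and filters are not given in the labels or the table. No value is 0. A deprived to replete ratio of 0.870 is shared by 1238 genes, none of them a member, as if a constant had been added to the counts of genes without reads. If that constant is 2 reads per gene, an assumption, about 122 and 141 reads lie behind 10 RPKM at a length of 1000 bases in the replete and deprived library. This is an inference from the values, and the true depth is unknown.

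Folds are log2 of deprived over replete after adding 1 RPKM, so differences at low levels are understated. Counts cover the 13855 genes whose mean RPKM reached 1. Genes were called by size alone, at 2-fold or 4-fold; no test was possible and no p-value is given. The members, gene lists and alternatives were chosen with earlier results of these data known. The text names all members, the 3 largest folds per list, every list gene at least 2-fold different where these were 8 or fewer, all LHC-like stress proteins, and the 2 nearest genes per member. AOX1, PGR5, PGRL1, CAH1 and LCIB, and the regulators beyond their 3 largest folds, were named after their values were seen. Sequences and promoter motifs are not analysed here. Flanking loci and the search for CCM1 were added after the values were seen, as was the removal of misnamed list matches. Gene symbols are those of the table. Of the 6 members 5, all but ELI2-1, matched a locus of RefSeq assembly Chlamydomonas_reinhardtii_v5.5, used for gene order only. Calculations used Python 3.11.15, numpy 2.4.6 and pandas 2.3.3, and the code was run on simulated libraries. The changes planted there were larger than those of the members, so that run checks the code and not the member folds.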

Additional observations from a re-analysis of the deposited data

How the results depend on the processing

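Of 54 member folds under 9 alternatives, 50 kept their direction and their side of the 2-fold line, and 0 changed direction. The exceptions were those of PTOX2, at 0.90 with a pseudocount of 5, 0.89 with median scaling, 0.88 with the trimmed mean and 0.89 with quantiles. LHCSR1 ranged from 2.18 to 2.44, LHCSR2/LHCSR3.1 from 2.30 to 2.55, ELI4 from 1.49 to 1.97 and PTOX1 from 1.58 to 2.05. All genes past 2-fold upwards numbered 775 as reported, 1277 with a pseudocount of 0.1, 286 with 5, 1376 without one, 512 with quantiles and 511 with a stricter filter (mean RPKM of 5). Downwards they numbered 227 as reported, 115 with a pseudocount of 5, 356 without one, 393 with median scaling, 399 with the trimmed mean and 395 with quantiles.

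Some list medians near 0 changed sign. The median of all genes itself shifted by -0.14 with median scaling, -0.15 with the trimmed mean and -0.17 with quantiles. With the common sum it shifted by 0.06, and with a pseudocount of 5 by -0.06. The median of LHC-like stress proteins was -0.025 with a pseudocount of 5, -0.078 with median scaling, -0.081 with the trimmed mean, -0.071 with quantiles and -0.14 with the stricter filter. That of the repair proteases was -0.095, -0.098 and -0.12 with median scaling, trimmed mean and quantiles, and that of antioxidant enzymes was -0.080 and -0.083 with the first 2 of these. The antenna median was 0.0075 with quantiles, and the median of the regulators was 0.0089 with the common sum. No replicate could be left out with 1 library per condition. No paired analysis was possible because the groups have 1 library each and no test. If the assumed added count of 2 holds, the lowest member value, 8.25 RPKM of ELI4, rests on about 101 reads at a length of 1000 bases.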

Other observations

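Near each LHCSR gene lay 1 locus without a symbol with a fold as large as that of the LHCSR gene, Cre08.g367400 and Cre08.g365850. Cre08.g367400, a locus without symbol or description in the deposited table, had 187 RPKM with phosphate and 1129 RPKM without it (log2 fold 2.59). In the deposited locus order, 2 loci lie between it and LHCSR2/LHCSR3.1, and in the RefSeq gene order 0 genes do. LHCSR2/LHCSR3.1 is described as lying immediately downstream of LHCSR3, and whether Cre08.g367400 is that LHCSR3 gene was not tested. Cre08.g367400 had 1.51 times the level of LHCSR2/LHCSR3.1 in the replete and 1.62 times in the deprived library. One of the loci between them, Cre08.g367450, had 6.88 and 16.6 RPKM (1.16). The locus before LHCSR1, Cre08.g365850, likewise without a symbol, had 1.82 and 14.9 RPKM (2.49). These loci were named after their values were seen, and whether their reads overlap those of the LHCSR genes was not tested.

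No neighbour of the other members passed 2-fold. Of the 5 loci on either side of each member, 49 of 60 passed the filter, with a median log2 fold of 0.17, and 3 (6.12%) were at least 2-fold higher and 0 lower. That share is near the 5.59% of all genes tested. All 3 were the loci beside the LHCSR genes named above. The neighbours of ELI2-1 ranged from -0.61 to 0.37, those of ELI4 from -0.47 to 0.75, those of PTOX1 from -0.71 to 0.55 and those of PTOX2 from -0.24 to 0.46.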
